A study of Mus musculus with 12 samples.

Results

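The 7 genes described here handle zinc in the cell. They are the metallothioneins *Mt1* and *Mt2*, the transcription factor *Mtf1*, the zinc exporter *Slc30a1* and the zinc importers *Slc39a8*, *Slc39a10* and *Slc39a14*. They were taken by gene name from the tables deposited for the 3 pairs of treatments, which together hold 28995 genes. All 7 were in every table and had a mean above 10 normalized counts there. The genes were chosen with their response to aldosterone known, and *Mt1* also with its level under spironolactone known, so their differences are described with standard errors and carry no p-value.

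RNA came from fibroblasts of the hindlimb muscles of 3-day-old wild-type C57 BL/10 mice. The cultures were purified by adherence, expanded, kept in charcoal-stripped serum for 24 hours to remove steroids, pooled for each of 2 mice and re-plated. Plates then received 1 µM aldosterone, 1 µM spironolactone or DMSO alone as vehicle for 48 hours, and 4 plates of each treatment were sequenced after poly(A) enrichment. Each library carries a sample number and a biological replicate number, each 1 or 2, and which number stands for the mouse is not in the labels, so the spread between libraries is partly that between plates of the same cells. The standard errors, intervals and p-values below count 4 libraries per treatment from 2 mice. They therefore do not measure the spread between mice. Aldosterone is a steroid agonist of the mineralocorticoid receptor (MR), and spironolactone is a steroid antagonist of it that carries a lactone ring and an acetylthio group.

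Metallothioneins are small cysteine-rich proteins that bind zinc and copper and release them again, and they also react with oxidants. Free zinc in the cell is sensed by Mtf1, which binds metal response elements (MREs) in the promoters of metallothionein genes and of *Slc30a1* and raises their transcription. Slc30a1 moves zinc out across the plasma membrane, while proteins of the Slc39a family move it into the cytosol. *Mt1* and *Mt2* are also known to respond to glucocorticoids and to stress.

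Reads counted on genes ranged from 19136923 to 30219185 per library, with a median of 23833430. All 7 fibroblast markers examined were present, with a summed level of 34400 to 47800 in CPM, the reads of a gene scaled to a common library total. The 7 myogenic markers summed to at most 6.4 CPM, with *Pax7* at 0 in all spironolactone and aldosterone libraries and *Myf5* at 0 in all vehicle and aldosterone libraries. The 7 macrophage markers summed to between 9.77 and 13.2 CPM. Some marker sums differed between treatments, and their part in the results below was not tested. With aldosterone the fibroblast sum was 34400 to 38600 CPM against 43000 to 47800 with vehicle, the sum of 5 endothelial markers was 28.3 to 30.5 against 20.3 to 22.5, and that of 3 adipocyte markers was 4.65 to 9.36 against 1.24 to 4.13. In both of these treatments only 2 of the 5 endothelial and 2 of the 3 adipocyte markers had a mean of at least 1 CPM. Their sums therefore do not stand for the whole lists. The sums of the pericyte and Schwann cell markers overlapped between these treatments. In RNA from whole plates, fewer cells of a type and less RNA per cell cannot be told apart.

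*Mt2* and *Mt1* lie next to each other on the plus strand of chromosome 8. In the positions of the deposited tables, whose build the submitters' processing notes give as mm39, *Mt2* (ENSMUSG00000031762) is at chr8:94899292-94900196 and *Mt1* (ENSMUSG00000031765) at chr8:94905710-94906955, with 5513 bases between them. A window of each of their promoters is shown with that of *Slc30a1*, because Mtf1 is known to act on these genes through MREs. Each sequence runs from 250 bases before to 50 bases after the RefSeq start of the gene, in GRCm38.p6 and on the plus strand, which is the strand of the gene. The windows are chr8:94172368-94172667 for *Mt2*, chr8:94178839-94179138 for *Mt1* and chr1:191906531-191906830 for *Slc30a1*. Capitals mark the MRE core, searched as TGCACNC or TGCGCNC on both strands.
Mt2: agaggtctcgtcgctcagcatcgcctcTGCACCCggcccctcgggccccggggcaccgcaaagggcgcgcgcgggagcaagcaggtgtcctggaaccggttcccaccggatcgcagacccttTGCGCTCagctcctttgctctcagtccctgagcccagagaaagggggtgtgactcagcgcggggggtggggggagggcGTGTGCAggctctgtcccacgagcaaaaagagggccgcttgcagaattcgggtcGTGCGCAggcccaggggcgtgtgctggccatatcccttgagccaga
Mt1: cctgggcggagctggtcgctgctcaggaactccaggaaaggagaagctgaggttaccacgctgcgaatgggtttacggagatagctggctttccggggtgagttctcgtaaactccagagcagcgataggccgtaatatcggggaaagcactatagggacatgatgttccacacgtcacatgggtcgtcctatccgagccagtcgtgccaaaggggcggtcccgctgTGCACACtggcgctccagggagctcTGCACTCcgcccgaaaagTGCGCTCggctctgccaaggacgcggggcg
Slc30a1: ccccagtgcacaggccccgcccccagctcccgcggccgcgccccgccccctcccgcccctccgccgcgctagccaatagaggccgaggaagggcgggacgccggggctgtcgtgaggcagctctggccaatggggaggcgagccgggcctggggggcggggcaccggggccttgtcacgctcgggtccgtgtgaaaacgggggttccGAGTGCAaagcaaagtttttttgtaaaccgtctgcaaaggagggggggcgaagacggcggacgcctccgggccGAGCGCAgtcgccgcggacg
The *Mt2* window held 4 matches to the MRE core, the *Mt1* window 3 and the *Slc30a1* window 2. Among all 32851 promoter windows of the same length, 25.7% held at least 1 match, 1.97% at least 3 and 0.517% at least 4. Windows were found for 6 of the 7 genes, all but *Slc39a14*, and these genes had 8 windows in all. Of the other windows, 1 of the 2 for *Slc39a8* held 1 match, and those of *Mtf1* and *Slc39a10* held 0. The steroid response element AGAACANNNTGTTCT was in 0 of the 8 windows and in 0.00913% of all windows. Its half-site TGTTCT was in the *Mtf1* window and in 19.0% of all windows. The string TATAAA had 0 matches in the *Mt1* and *Mt2* windows and was in 13.6% of all windows. Sequence outside the windows was not searched, so these counts do not cover whole promoters. A match is a string of letters in this window and does not show that a factor binds there.

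Aldosterone was compared with vehicle to ask which genes respond to aldosterone in these fibroblasts. No plate received aldosterone together with an antagonist. Whether a response runs through MR or through the glucocorticoid receptor was therefore not tested. The paper states that combined treatment with aldosterone and MR antagonists is still needed to settle the part of MR. *Mt1* was 4.61-fold and *Mt2* 9.59-fold higher with aldosterone, *Slc39a10* was lower, and the transcription factor, the exporter and the other 2 importers were not called. A gene was called when its adjusted p from limma was at most 0.05. By this rule 2 of the 7 genes were higher, against 5.68% of the 27319 genes in the table, and 1 was lower, against 4.74%. With a fold change of at least 2 as well, *Mt1* and *Mt2* were called, against 2.06% of all genes. The median log2 fold change was 0.10 over the 7 genes and -0.00326 over all genes whose mean was 10 normalized counts or more. The groups did not overlap, with all aldosterone libraries higher, for 3 of the 7 genes (7.55% of all genes), and for 1 with all of them lower (6.9%). Those shares include genes with few reads. Fitted alone, the 15245 genes with a mean of at least 10 gave 1620 higher and 1413 lower. Since the 7 genes were chosen on the same libraries, nothing is read from any of these shares.

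**Figure D1:**
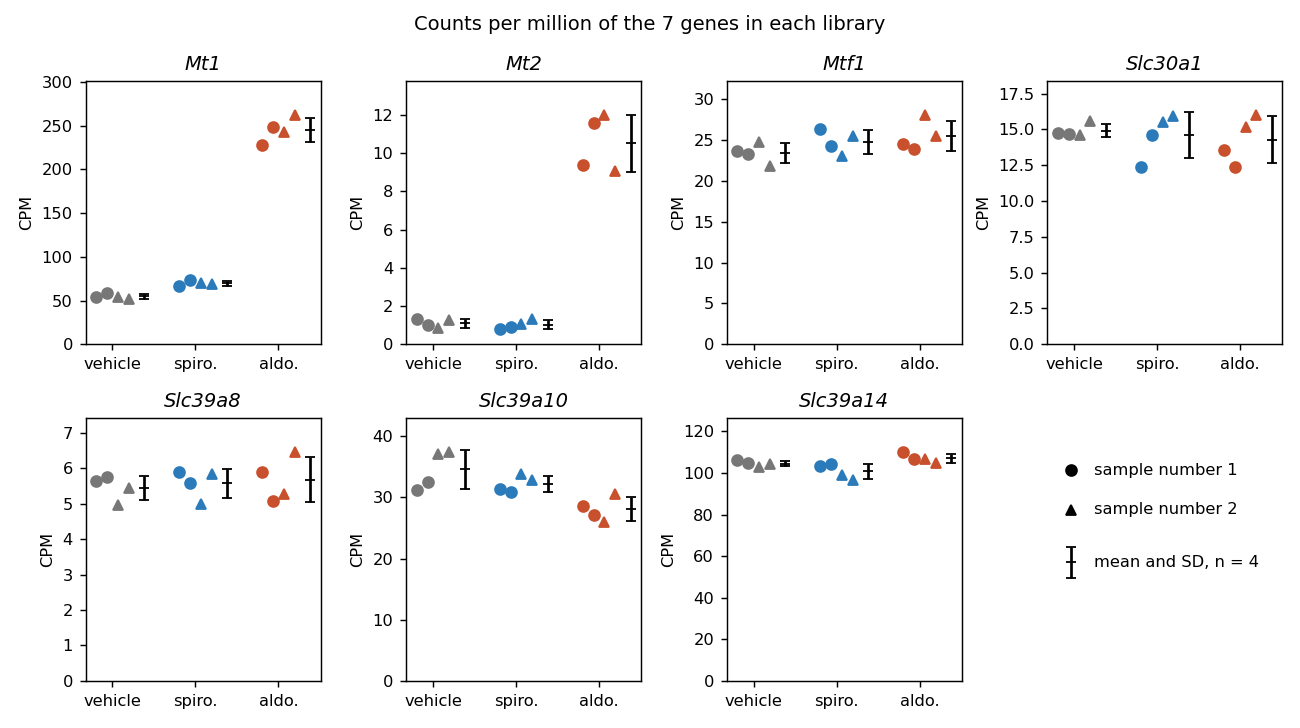
CPM (linear axes from 0) for each of the 7 genes in the 12 libraries, with circles for sample number 1, triangles for sample number 2 and bars for the mean and SD of 4 libraries. *Mt1* sits at 228 to 262 CPM with aldosterone and 52.3 to 58.3 with vehicle, and *Mt2* at 9.07 to 12.0 and 0.836 to 1.33, while the treatments lie close together for the other genes.

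*Mt1* had more reads than *Mt2* in these cells, with a limit on the counting of *Mt2* that is given below. In vehicle libraries it was at 54.0 and 58.3 CPM for sample 1 and at 54.0 and 52.3 CPM for sample 2. In aldosterone libraries it was at 228 and 248 CPM for sample 1 and at 242 and 262 CPM for sample 2, so the lowest treated library was far above the highest vehicle library. Behind these values were 1033 to 1547 reads per vehicle library and 4361 to 7912 per aldosterone library. The mean normalized count was 5944 ± 269 with aldosterone and 1289 ± 67.7 with vehicle (SD, n = 4). The log2 fold change was 2.20 ± 0.057 (SE), with a 95% interval from 2.08 to 2.33. It was 2.13 within sample number 1 and 2.28 within sample number 2.

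*Mt2* had far fewer reads and moved further. It was at 1.33 and 0.991 CPM in the vehicle libraries of sample 1 and at 0.836 and 1.24 CPM in those of sample 2. With aldosterone it was at 9.40 and 11.6 CPM in sample 1 and at 12.0 and 9.07 CPM in sample 2, and again every treated library was above every vehicle library. There were 16 to 38 reads per vehicle library and 180 to 312 per aldosterone library, so the vehicle level is the less precise of the pair. The log2 fold change was 3.26 ± 0.182 (SE), with a 95% interval from 2.87 to 3.65, which lies above that of *Mt1*. It was 3.19 within sample number 1 and 3.33 within sample number 2. *Mt1* and *Mt2* kept their calls without any 1 of the 8 libraries, with log2 fold changes of 2.18 to 2.24 and 3.14 to 3.37.

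Since the genes rose by different factors, the proportion of their reads differed between treatments. There were 51.5 ± 12.0 reads of *Mt1* for each read of *Mt2* with vehicle, from 40.7 to 64.6, and 23.7 ± 3.87 with aldosterone, from 20.2 to 28.9 (SD, n = 4). *Mt2* made up 1.98% ± 0.444 of the reads on both genes with vehicle and 4.12% ± 0.603 with aldosterone. With spironolactone the ratio was 70.5 ± 15.1, from 51.8 to 83.7, which overlapped that with vehicle. The exact 95% binomial intervals of single libraries, which cover counting error only, ran from 0.874% to 3.36% with vehicle and from 2.97% to 5.25% with aldosterone, so the proportions of single libraries are less well separated than the levels.

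The level of *Mt2*, and with it the ratio of *Mt1* to *Mt2* reads, is uncertain because an antisense gene covers most of *Mt2*. The lncRNA *Gm45774*, on the minus strand at chr8:94897376-94900040, shares 749 of the 905 bases spanned by *Mt2*, or 82.8%, which leaves 156 bases to *Mt2* alone. No gene in the tables overlaps *Mt1*. *Gm45774* had 1 read over the 4 vehicle libraries and 17 over the 4 aldosterone libraries, from 1 to 8 per library. The strand setting of the counting is not given in the sources used here, and how reads on both genes were assigned was not tested.

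**Figure D2:**
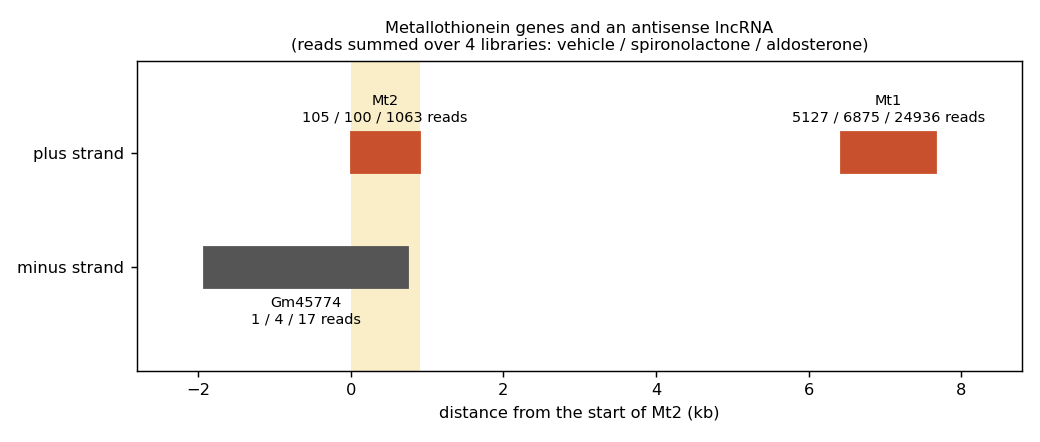
Positions of *Mt2*, *Mt1* and the antisense lncRNA *Gm45774* in kilobases from the start of *Mt2*, to scale, with the span of *Mt2* shaded and the reads summed over the 4 libraries of vehicle, spironolactone and aldosterone printed by each gene. *Gm45774* covers 82.8% of *Mt2*, and *Mt1* begins 5513 bases after the end of *Mt2*.

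The other metallothionein genes of the cluster had few reads. *Mt3*, known mainly from brain, had 0 reads in each vehicle library and 0, 4, 2 and 10 reads in the aldosterone libraries. *Mt4*, known from stratified epithelia, also had 0 reads in each vehicle library, and 0, 9, 2 and 7 reads in the aldosterone libraries, where the first library was the same as for *Mt3*. With that library at 0, the groups overlapped for both genes. Neither was called (adjusted p = 0.0764 and 0.0664 from limma). Both were called as higher with a replicate block on the sample number (adjusted p = 0.0317 and 0.0256). *Nup93*, a nuclear pore gene whose start is within 100 kb of *Mt1*, was at 58.6 ± 1.69 CPM with vehicle and 55.3 ± 3.08 CPM with aldosterone (SD, n = 4). Of the 2 other genes with a start that near, the pseudogene *Rpl10-ps5* was at 3.02 ± 0.452 and 3.16 ± 0.603 CPM, and *Gm45804* was at under 0.2 CPM in both.

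*Mtf1* (ENSMUSG00000028890, chr4:124695897-124743593, plus strand), the zinc sensor, differed little. It was at 23.6, 23.3, 24.8 and 21.8 CPM with vehicle and at 24.5, 23.9, 28.0 and 25.5 CPM with aldosterone, in the order of sample 1 and then sample 2. In normalized counts the aldosterone libraries all lay above the vehicle libraries, from 588.7 to 672 against 508.8 to 579.7, whereas in CPM the groups overlapped. The log2 fold change was 0.16 ± 0.072 (SE), and it was not called. *Mtf1* overlaps *1110065P20Rik* on the opposite strand, and *Slc30a1* overlaps the lncRNA *1700034H15Rik* there, so the same doubt over strand applies to both. On their own strand, *Mtf1* overlaps *5S_rRNA*, *Slc39a8* overlaps *Gm43428* and *Gm43429*, and *Slc39a10* overlaps the lncRNA *Gm28151*. How reads shared with these genes were assigned was not tested.

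*Slc30a1* (ENSMUSG00000037434, chr1:191638879-191645359, plus strand), the exporter, was at similar levels in both treatments. It was at 14.8, 14.7, 14.6 and 15.6 CPM with vehicle and at 13.6, 12.4, 15.2 and 16.0 CPM with aldosterone, so the vehicle libraries lay within the range of the aldosterone libraries. The log2 fold change was -0.03 (SE 0.086, 95% interval -0.21 to 0.15). That interval does not reach the fold change of either metallothionein.

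*Slc39a8*, *Slc39a10* and *Slc39a14* encode importers of zinc, and *Slc39a8* and *Slc39a14* are known to carry manganese and iron as well. *Slc39a10* (ENSMUSG00000025986, chr1:46846704-46932012, minus strand) was at 31.2, 32.6, 37.1 and 37.4 CPM with vehicle and at 28.6, 27.1, 26.0 and 30.5 CPM with aldosterone. Every aldosterone library was below every vehicle library, but the 2 vehicle libraries of sample 2 stood above those of sample 1. Its log2 fold change was -0.26 (SE 0.075, 95% interval -0.42 to -0.10), and it was called as lower. The call was lost when any 1 of the 8 libraries was left out, with log2 fold changes of -0.30 to -0.21, and with the biological replicate number as a replicate block.

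*Slc39a14* (ENSMUSG00000022094, chr14:70540918-70588874, minus strand) was the most abundant importer of the 3. It was at 106, 105, 103 and 104 CPM with vehicle and at 110, 107, 107 and 105 CPM with aldosterone, with overlapping groups and a log2 fold change of 0.08 (SE 0.052). *Slc39a8* (ENSMUSG00000053897, chr3:135531040-135594333, plus strand) was at 5.62, 5.74, 4.96 and 5.43 CPM with vehicle and at 5.90, 5.08, 5.26 and 6.45 CPM with aldosterone. Its groups overlapped too, and its log2 fold change was 0.10 (SE 0.124, 95% interval -0.17 to 0.36). Neither was called.

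**Figure D3:**
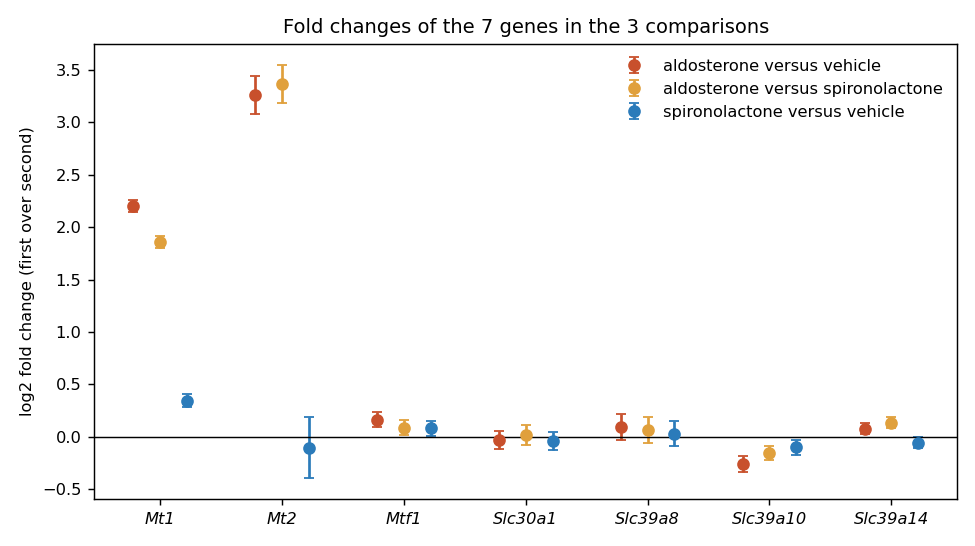
Log2 fold changes of the 7 genes on the vertical axis in the comparisons of aldosterone with vehicle (red), aldosterone with spironolactone (yellow) and spironolactone with vehicle (blue), with bars for the standard error. *Mt1* and *Mt2* lie between 1.86 and 3.37 in both aldosterone comparisons, which share the same aldosterone libraries, and the only other point clear of 0.3 is *Mt1* with spironolactone at 0.35.

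The other members of these families were examined as a list of 22 genes, of which 21 were in the table of aldosterone and vehicle and 13 had a mean of 10 normalized counts or more. Of the 21, 0 were called higher and 1 lower, against 5.68% and 4.74% of all genes. The gene called was *Slc39a9*, an importer of the secretory pathway, at 1446 ± 26.0 normalized counts with aldosterone and 1657 ± 38.6 with vehicle (SD, n = 4). Its log2 fold change was -0.20 ± 0.053 (SE), with an adjusted p of 0.0229 from limma. Over the 13 genes log2 fold changes ran from -0.20 to 0.52, with a median of -0.03 against -0.00326 over all genes of that abundance. With a replicate block on the sample number, 2 were higher, *Mt3* and *Mt4* (2371 of all 27319 genes). With it 2 were lower, *Slc39a9* and *Slc39a6* (2192 of all genes). *Slc39a6* was named after its values were seen. Without the aldosterone library at 0 for *Mt3* and *Mt4*, 3 genes were called.

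**Figure D4:**
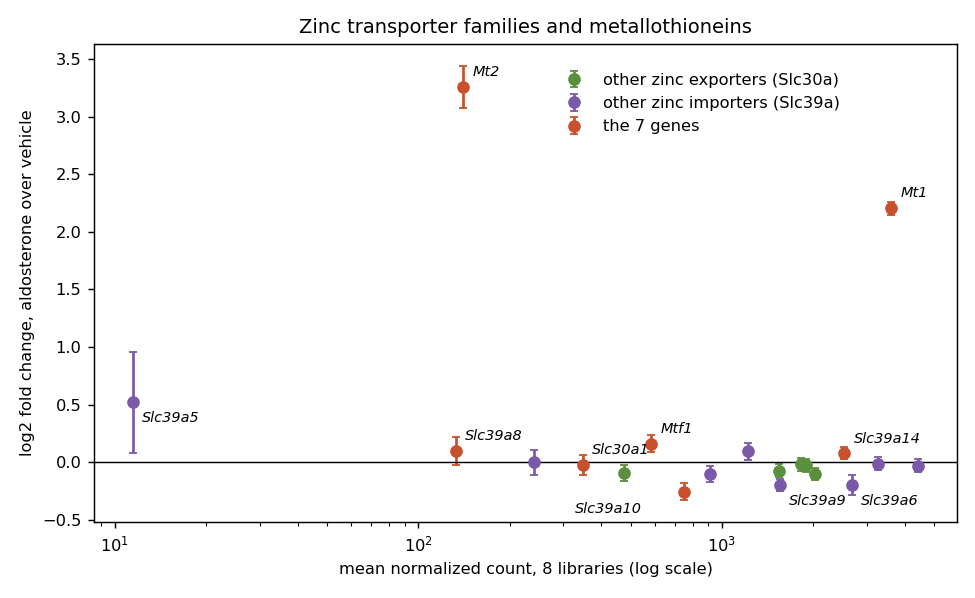
Log2 fold change of aldosterone over vehicle against the mean normalized count (log axis) for the 7 genes (red) and for 13 other zinc exporters (green) and importers (purple) with a mean of at least 10, with bars for the standard error. *Mt1* and *Mt2* stand at 2.20 and 3.26, and the zinc transporters lie between -0.26 and 0.52.

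Aldosterone was also compared with spironolactone at the same dose and time. The spironolactone libraries were compared with vehicle in turn, so the 3 comparisons share libraries, and their values are given side by side. Against spironolactone, *Mt1* was higher by 1.86 on the log2 scale (SE 0.056) and *Mt2* by 3.37 (SE 0.181), and every aldosterone library was above every spironolactone library for both. By the same rules 2 of the 7 genes were higher (4.93% of 27631 genes) and 0 lower (3.96%), and the 2 also passed the 2-fold threshold (1.9% of all genes). Here too nothing is read from the shares, since the genes were chosen with their response to aldosterone known. The groups did not overlap for 3 genes with aldosterone higher (6.76% of all genes) and for 1 with aldosterone lower (6.22%). The last was *Slc39a10*, with spironolactone libraries at 31.4, 30.8, 33.8 and 32.8 CPM and a log2 fold change of -0.15 (SE 0.068), which was not called. *Slc39a14* was at 103, 104, 99.1 and 96.7 CPM with spironolactone. It was higher with aldosterone by 0.14 on the log2 scale (SE 0.056), a difference that was called only with a replicate block on the sample number. The fold changes of *Mtf1*, *Slc30a1* and *Slc39a8* were 0.08, 0.02 and 0.07 on the log2 scale, and their groups overlapped. With spironolactone *Mtf1* was at 23.1 to 26.4 CPM, *Slc30a1* at 12.3 to 16.0 CPM and *Slc39a8* at 5.00 to 5.88 CPM. Of the other zinc genes 20 were in this table, and 0 were called by limma, edgeR or DESeq2. With a replicate block on the sample number 1 was called (3974 of all 27631 genes). Without the aldosterone library at 0 for *Mt3* and *Mt4*, 2 were called.

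Between spironolactone and vehicle, *Mt1* was higher in every spironolactone library, while the *Mt2* levels overlapped. *Mt1* was at 66.6, 73.1, 70.1 and 68.5 CPM with spironolactone, so every one of these libraries was above the highest vehicle library, at 58.3 CPM, and below the lowest aldosterone library, at 228 CPM. The mean normalized count was 1647 ± 77.5 with spironolactone and 1297 ± 68.6 with vehicle (SD, n = 4), or 27.1% higher. The log2 fold change was 0.35 (SE 0.059, 95% interval 0.22 to 0.47), with 0.31 within sample number 1 and 0.38 within sample number 2. *Mt2* was at 0.796, 0.895, 1.08 and 1.32 CPM with spironolactone, overlapping the vehicle libraries, and its log2 fold change was -0.11 (SE 0.290). The interval for *Mt2*, from -0.72 to 0.51, includes the value of *Mt1*, so at 18 to 31 reads per library a difference between the genes was not detectable.

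None of the 7 genes was called in this comparison, where limma called 0% of 27598 genes as higher, 0% as lower and 0% with a 2-fold change. Of all genes 1251 had an unadjusted p under 0.05, edgeR also called 0, and DESeq2 on the recovered reads called 13, among them *Mt1*. With a replicate block on the sample number limma called 97 genes, again with *Mt1* among them as higher (SE 0.050). The libraries of both treatments did not overlap for 1.39% of all genes with spironolactone higher and for 1.24% with it lower. *Mt1* was the only 1 of the 7 genes in either. Since *Mt1* was chosen with its level in these libraries known, nothing is read from its calls or from those shares. The other 5 genes had log2 fold changes between -0.10 and 0.08 in this comparison. Of the other zinc genes 19 were in the table, and 0 were called in either direction by limma, edgeR or DESeq2.

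Levels of different genes were compared in TPM, a share of all transcripts that corrects for the gene length in the tables. In vehicle libraries *Mt1* came first at 169 ± 7.61 TPM (SD, n = 4), followed by *Slc39a14* at 38.1 ± 0.726, *Slc39a10* at 21.8 ± 2.15, *Slc30a1* at 10.9 ± 0.494, *Mtf1* at 10.1 ± 0.401, *Mt2* at 7.19 ± 1.52 and *Slc39a8* at 2.73 ± 0.184. The ranges of neighbors in this order did not overlap. With spironolactone *Mt1* was at 211 ± 4.45 TPM and the order was the same, except that *Mtf1* and *Slc30a1* overlapped at 10.5 TPM each. With aldosterone *Mt1* reached 728 ± 29.1 TPM, and *Mt2* moved from the sixth place to the second at 66.2 ± 9.22, above *Slc39a14* at 37.6 ± 1.46. *Mtf1* and *Slc30a1* overlapped here as well. The place of *Mt2* rests on a length of 588 bases and on the counting of reads shared with *Gm45774*. The deposited length of *Mt1*, 1246 bases, equals its whole span, and a shorter length would give a higher TPM.

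The genes whose pattern over the 12 libraries was most like that of *Mt1* were *Fth1*, *Dpep1*, *Ndrg2*, *Nbl1* and *Col24a1*, with Pearson's r of 0.996, 0.995, 0.994, 0.994 and 0.993 among 15285 genes whose mean was 10 normalized counts or more. For *Mt2* they were *Prrg3*, *Ramp2*, *Lcn2*, *Adra1b* and *Ids*, with r between 0.990 and 0.995. Between *Mt1* and *Mt2* r was 0.971, which placed *Mt2* at rank 113 for *Mt1*. These values are descriptions over points that share treatments and sample numbers, and carry no p.

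Genes that handle iron and copper and genes of oxidative and heat stress were listed because metallothioneins bind copper as well as zinc and respond to stress. Of 15 iron genes in the table of aldosterone and vehicle, 5 were called higher (5.68% of all genes) and 1 lower (4.74%), with a median log2 fold change of 0.04 (-0.00326 over all genes). All 15 had a mean of 10 normalized counts or more. Fitted alone, the 15245 genes of that abundance gave 1620 higher and 1413 lower, larger shares than over all genes. With a replicate block on the sample number 6 were higher and 3 lower, against 2371 higher and 2192 lower of all 27319 genes. The 3 genes added, named after their values were seen, were *Ftl1* at 0.16 (adjusted p = 0.0181 from limma with the block), *Ireb2* at -0.16 (adjusted p = 0.0103) and the iron exporter gene *Slc40a1* at -0.75 (adjusted p = 0.00123) on the log2 scale. *Fth1*, the heavy chain of the iron store ferritin, rose from 16971 ± 1233 to 49575 ± 1859 normalized counts (SD, n = 4), by 1.55 ± 0.064 (SE) on the log2 scale, with an adjusted p of 8.04e-11 from limma. *Steap4*, a metalloreductase, rose by 1.63 (adjusted p = 0.00388) and *Cp*, the copper-bearing ferroxidase ceruloplasmin, by 1.17 (adjusted p = 0.000263). The iron carrier gene *Trf* rose by 0.72 and *Steap2* by 0.27, with adjusted p of 0.0236 and 0.00494. *Heph*, a membrane-bound ferroxidase, fell by 0.59 (adjusted p = 0.000136). No relation between these genes and the zinc genes was tested.

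Of 10 copper genes 1 was called as higher, against 5.68% of all genes, and 0 as lower, against 4.74%. It was the copper transporter gene *Slc31a2*, which rose by 0.35 ± 0.097 (SE) with an adjusted p of 0.0283 from limma. The median log2 fold change of the copper genes was 0.09. Of the 12 stress genes 4 were higher (5.68% of all genes) and 3 lower (4.74%), with a median of 0.08, so the list did not move in 1 direction. All 12 had a mean of 10 normalized counts or more, where the shares called are larger, as given for the iron genes. With the replicate block 5 were higher and 4 lower, against 2371 higher and 2192 lower of all 27319 genes. The genes added, named after their values were seen, were *Hmox1* at 0.14 (adjusted p = 0.0117 from limma with the block) and *Gclm* at -0.17 (adjusted p = 0.0139) on the log2 scale. The small heat shock protein gene *Hspb1* rose by 1.18 (adjusted p = 1.63e-05 from limma). *Gclc*, which encodes the catalytic subunit of glutamate-cysteine ligase in glutathione synthesis, rose by 1.09 (adjusted p = 1.22e-07 from limma). The chaperone genes *Hsph1* and *Hspa1b* rose by 0.38 and 0.30, with adjusted p of 0.00454 and 0.0269. The cystine transporter gene *Slc7a11* fell by 0.49 and the thioredoxin reductase gene *Txnrd1* by 0.42, with adjusted p of 0.0143 and 0.00307. In the comparison of spironolactone with vehicle, 0 genes of these 3 lists were called by limma. With a replicate block on the sample number 1 was, *Fth1*, which was higher by 0.18 on the log2 scale.

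**Figure D5:**
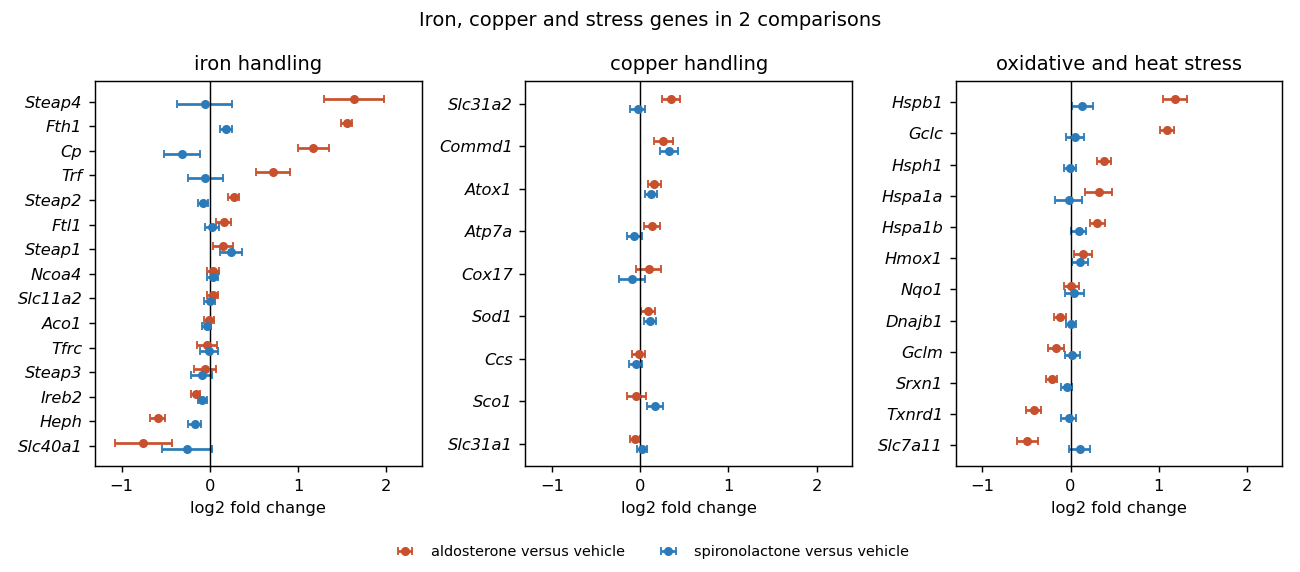
Log2 fold changes of iron, copper and stress genes whose mean was 10 normalized counts or more, for aldosterone (red) and spironolactone (blue) over vehicle, with bars for the standard error. *Steap4*, *Fth1* and *Cp* stand at 1.63, 1.55 and 1.17 with aldosterone, *Hspb1* and *Gclc* at 1.18 and 1.09, and most other genes lie near 0 in both comparisons.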

How the data were processed

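Fibroblast RNA was sequenced in 12 libraries, 4 per treatment. The deposited signal values are gene counts that the authors scaled by library size factors, in a table for each pair of treatments. The submitters' processing notes name HISAT2 (version 2.0.5), featureCounts (version 1.5.0-p3) and mm39, whereas the study's methods name mm9. Gene starts in the tables matched NCBIM37 for 39 of 20676 genes. The tables also hold the authors' DESeq2 fold changes and p-values, which were not used. The reads behind a value were recovered from the step that 1 read is worth in its column, and within 0.01 step 100% came out whole. CPM and TPM were computed from the recovered reads and the deposited gene lengths.

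Each table was fitted with limma (version 3.58.1 in R 4.3.3) on log2(normalized count + 1), with a trend in the prior variance, treatment as the only factor and Benjamini-Hochberg adjustment over the whole table. On this scale changes of low genes are understated. On simulated data with 27319 genes for aldosterone and vehicle, limma recovered 24 of 67 genes changed 1.5-fold, 59 of 67 changed 2-fold and 66 of 66 changed 4-fold. There were 17 false calls among 27119 unchanged genes. The changed genes were drawn from well-counted genes only, and the simulated libraries were not paired by sample number. The spread between simulated libraries was set by a formula from the mean count, and fewer genes were changed than were called in the data. These rates therefore do not cover low genes, nor the pairing, the spread and the number of changed genes in the data.

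The sample numbers pair the libraries, since the deviations of same-numbered libraries of different treatments from their group means correlated in each of 24 pairs (r = 0.135 to 0.281 across 15313 genes, which are not independent). The labels do not say what the number marks. Values with this number as a block are given beside the results whose call or count it changes. Alternatives were edgeR (version 4.0.16) and DESeq2 (version 1.42.0) on recovered reads, TMM and upper-quartile scaling, a pseudocount of 0.5, a filter on a mean of at least 10, blocks on either number, single sample numbers and leaving out each library.

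The members and lists were chosen with earlier results of these data known. List genes are named when called between aldosterone and vehicle with a mean of at least 10, at most 6 per list by size of change. Similar genes are the 5 with the highest Pearson's r of log2 CPM (TMM, prior count 2), and neighboring genes start within 100 kb of *Mt1* or *Mt2*. Other genes are said to have been named after their values were seen.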

Additional observations from a re-analysis of the deposited data

Results flagged for a closer look

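In the vehicle group, the *Slc30a1* level of replicate 2 of sample 2, at 15.6 CPM, stood apart from the other 3 libraries, at 14.6 to 14.8 CPM. Its gap to the nearest library was 0.855 of the range of the group. Over 21 groups examined, 7 genes in 3 treatments, this was the only library past Dixon's 95% limit, which chance passes in about 1 in 20 groups.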

How the results depend on the processing

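*Mt1* and *Mt2* kept their direction in each comparison with aldosterone under every alternative run, and their calls under all but the single sample numbers. Over the 3 comparisons, 346 of the alternative values of the 7 genes kept direction and call, 16 lost a call, 3 gained one and 13 changed sign, the last all among differences that were not called. Depth limits *Mt2* outside aldosterone, at 16 to 38 reads per library. With single sample numbers there are 2 libraries per group.

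Between aldosterone and vehicle, 2847 genes were called, 4563 with the replicate block on the sample number, 17 with sample number 1 only and 888 with sample number 2 only. With a 2-fold change, 564 genes were called, and 17 in the separate fit of sample number 1 only. Leaving out 1 library gave 1766 to 2246 genes, and 2 of the 3 called zinc handling genes in each case, *Slc39a10* being the one lost. Of the 7 genes, 0 were called with sample number 1 only and 1 with sample number 2 only, with or without the 2-fold threshold. Of the other zinc genes, 4 were called with the block instead of 1, 0 with either sample number alone, and 1 to 3 when a library was left out.

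Between aldosterone and spironolactone, 2454 genes were called, 3974 with the block, 4 with sample number 1 only, with or without the 2-fold threshold, 943 with sample number 2 only, and 1565 to 1865 when a library was left out. With sample number 1 only, 0 of the 7 genes were called, with or without that threshold. Of the other zinc genes, 1 was called with the block, and 0 to 2 when a library was left out.

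Between spironolactone and vehicle, DESeq2 called 13 genes and limma with the block 97, of which 2 passed the 2-fold threshold. Each called 1 of the 7 genes, *Mt1*. Libraries were left out only in limma without a block, which called 0 genes with all libraries and 0 with any of them left out. How the calls of *Mt1* by DESeq2 and with the block depend on single libraries was therefore not tested.

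The changes of sign were as follows on the log2 scale. Between aldosterone and vehicle, *Slc30a1* was at 0.0762 with sample number 2 only and 0.0315 without replicate 2 of sample 1 with aldosterone, in a range from -0.0721 over libraries left out, and *Slc39a8* at -0.0014 with sample number 1 only. Between aldosterone and spironolactone, *Mtf1* was at -0.0031 and *Slc39a8* at -0.0034 with sample number 1 only. *Slc30a1* was at -0.0103, -0.0290 and -0.0608 without replicate 1 or 2 of sample 2 with aldosterone or replicate 1 of sample 1 with spironolactone, in a range up to 0.0746. Between spironolactone and vehicle, *Mt2* was at 0.219 with sample number 2 only and 0.000646 without replicate 1 of sample 1 with spironolactone, in a range from -0.228. *Slc30a1* was at 0.0577 and 0.0368 in the same settings, in a range from -0.0803. *Slc39a8* was at -0.0165 without replicate 1 of sample 2 with vehicle, in a range up to 0.0847. The causes were not tested. The block on the sample number changed no call of the 7 genes other than those of *Mt1* and *Slc39a14* named above.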
